A study of Danio rerio with 6 samples.

Results

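The vacuolar ATPase, the proton pump of lysosomes and endosomes, and proteins that sit beside it in the lysosomal membrane were examined as 40 genes of the 31962 in the count files. The genes were chosen by listing zebrafish symbols of pump subunits, lysosomal channels and membrane proteins and looking them up in a table of Ensembl IDs and names. The list was made with earlier results of these data known. A listed symbol was matched exactly where possible, and otherwise by its upper-case name without the paralog suffix. Of 40 listed symbols 39 were matched. The symbol atp6v1ba found no name, and the name ATP6V1B2 was carried by 2 Ensembl IDs, which gives 40 genes. By role they are 12 genes of the V1 domain, 11 of the V0 domain, 3 accessory proteins of the pump, 7 channels and transporters and 7 further membrane proteins. A paralog whose name is shared is given with its Ensembl ID, since the table does not say which of the listed suffixes it carries.

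The counts come from polyadenylated RNA of macrophages sorted by flow cytometry from zebrafish (Danio rerio) larvae, 3 libraries of the cxcr3.2-/- genotype and 3 of the cxcr3.2+/+ genotype. Fish of both genotypes carried the transgene mpeg1:mCherryF, a farnesylated red reporter under the promoter of a macrophage gene, and red cells were collected. No treatment is given for either genotype. Each library is one pool of 150 to 200 larvae, so that it averages many animals, and the labels call the pools independent. The age is 6 days after fertilisation in one field of the labels and 5 days in another. Totals were 6792943 to 9607009 counts in the mutant libraries and 6239470 to 8452301 counts in the wild type libraries. The comparison addresses how the transcripts of larval macrophages without a given treatment differ with mutation of cxcr3.2, which encodes a chemokine receptor. Levels are CPM, counts per 1000000 counts of a library after scaling by TMM, a factor for library composition, and fold changes are mutant over wild type. The transcript of cxcr3.2 itself measured 167, 203 and 153 CPM in the mutant libraries, against 189.7, 154 and 174 CPM in the wild type libraries, with overlap. The kind of mutation is not given in the labels, so this level does not check the genotype. CPM values are not corrected for transcript length, so levels of different genes are not compared, and the shares of a paralog's CPM in its pair given further on serve only to compare libraries.

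The pump has a V1 domain in the cytosol, which hydrolyses ATP, and a V0 domain in the membrane, which carries protons into the lumen. Hydrolysis in V1 turns a central stalk and with it the V0 ring of proteolipid subunits, and protons pass at the interface of the ring with subunit a. The acid lumen activates the hydrolases with which macrophages degrade engulfed material. Channels, transporters and heavily glycosylated proteins in the same membrane export the products and protect the membrane.

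Of the 38 members with enough counts to be tested, none passed an adjusted p of 0.05 in either direction (edgeR's quasi-likelihood test, Benjamini-Hochberg adjustment over 16499 genes, of which 0.309% were called higher and 0.885% lower). At an unadjusted p below 0.05, 13 members were higher and 1 was lower, whereas 7.04% of all genes tested were higher and 7.17% lower at that level. DESeq2, run as an alternative, called 9 of the 35 members to which it gave an adjusted p higher and 0 lower, against 4.59% of 10084 genes called higher and 4.64% called lower. The 9 were ATP6V1H, ATP6V1A (ENSDARG00000076318), ATP6V1B2 (ENSDARG00000013443), ATP6V1C1 (ENSDARG00000035880), atp6v1e1b, ATP6V0B, ATP6V0C (ENSDARG00000057853), atp6ap1b and CD63. All 9 lay above the wild type range in each mutant library, which adds no support, since they were picked by a test on these libraries. Of the 9, 7 are subunits of the pump itself, as are 22 of the 38 tested members. In 15 members the 3 mutant libraries lay above the 3 wild type libraries, and in 3 they lay below, 18 of 38 without overlap. Among all genes tested 20.6% had no overlap, 1681 with the mutant above and 1714 with it below. A positive log2 fold change was found in 29 of the 38 members, against 47.9% of all genes tested. Since the members were chosen with earlier results of these data known, such shares describe the list and test nothing. Of the 38 members, 4 reached the count cutoff in all libraries of one genotype only, ATP6V1B2 (ENSDARG00000043465), TCIRG1 (ENSDARG00000016835) and atp6ap1a in the mutant and ATP6V0A1 (ENSDARG00000015174) in the wild type. Of these, ATP6V1B2 and TCIRG1 are among the 29 with a positive log2 fold change, and TCIRG1 is among the 15 above the wild type libraries. The filter favoured those readings, so they are no evidence of a difference.

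The members were also read against genes at a mean of at least 20 CPM over all 6 libraries, a threshold set with the values already known. The members had been chosen with earlier results known too. The threshold is a floor and does not match levels. Above it the median SE was 0.153 for the pump subunits, against 0.229 for all genes. There, 17 pump subunits were tested, and in 11 of them the mutant libraries lay above the wild type libraries, against 18.7% of 5001 genes at that level. In none did they lie below, against 13.0%. Of these 17, 16 had a positive log2 fold change, against 56.1% of genes at that level, and 10 had an unadjusted p below 0.05 with a higher mutant level, against 15.7%. DESeq2 called 7 of the 17 higher, against 7.83% of 4994 genes. Their median log2 fold change was 0.42, against 0.069 over the 5001 genes. The 12 other members at that level had a median of 0.17, with 8 positive and 4 negative. Whether the pump subunits differ from the other members was not tested.

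**Figure D1:**
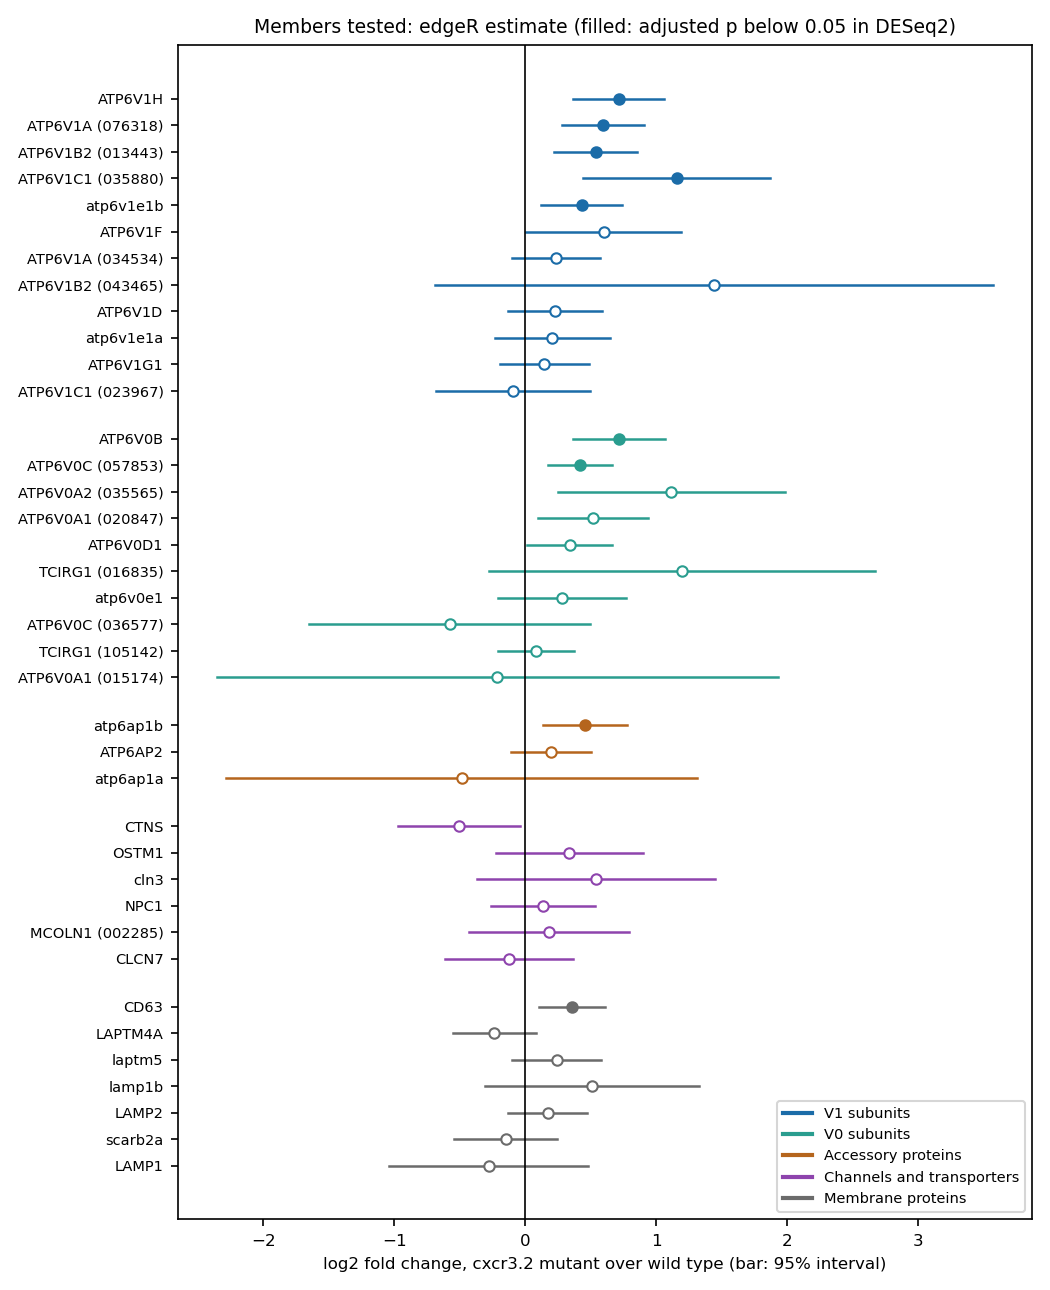
Log2 fold change of each tested member, cxcr3.2 mutant over wild type, on the horizontal axis, with 95% intervals as bars and members grouped by role; numbers in parentheses are the last 6 digits of the Ensembl ID, and filled points had an adjusted p below 0.05 in DESeq2. Most pump subunits lie right of 0, for example ATP6V1H at 0.71 and ATP6V0B at 0.72, and CTNS at −0.50 lies left of it with its whole interval.

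In the V1 domain, 11 of the 12 subunit genes had a positive log2 fold change, with a median of 0.48 against −0.028 over all genes tested. The positive genes include ATP6V1B2 ENSDARG00000043465, which passed the count filter through the mutant libraries only. The 11 V1 genes at a mean of at least 20 CPM, without it, had a median of 0.43. The gene with the lowest p was ATP6V1H (ENSDARG00000006370), whose product couples ATP hydrolysis to proton transport. It measured 148, 137 and 118 CPM in mutant replicates 1 to 3, against 85.0, 80.2 and 80.6 CPM in wild type replicates 1 to 3. The lowest mutant value is above all wild type values. ATP6V1H averaged 134 ± 15.2 CPM in mutant and 81.9 ± 2.64 CPM in wild type macrophages (SD, n = 3 each), a 1.64-fold difference (log2 fold change 0.71, SE 0.15, adjusted p = 0.0713; 95% interval 0.37 to 1.06). In DESeq2 its adjusted p was 0.000597, within a range of 0.000597 to 0.22 over all settings tried.

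Subunits A and B alternate in the ring of V1 where ATP is hydrolysed, A carrying the catalytic sites. ATP6V1A ENSDARG00000076318 measured 161, 189 and 169.9 CPM in mutant replicates 1 to 3, against 109.7, 118 and 118 CPM in wild type replicates 1 to 3, with no overlap (log2 fold change 0.59, SE 0.14, adjusted p = 0.091; adjusted p = 0.00149 in DESeq2). Its paralog ATP6V1A ENSDARG00000034534 measured 363, 281 and 269 CPM in the mutant libraries, against 252, 265 and 259 CPM in the wild type libraries. The groups just separate for this paralog, mutant replicate 1 being far above the others, and its interval includes 0 (log2 fold change 0.23, SE 0.15, adjusted p = 0.55; 95% interval −0.10 to 0.57). ATP6V1B2 ENSDARG00000013443 was 1.45-fold higher and measured 525, 548 and 452 CPM in the mutant libraries, against 369.8, 376 and 304 CPM in the wild type libraries (log2 fold change 0.54, SE 0.14, adjusted p = 0.118; adjusted p = 0.00646 in DESeq2). A second gene named ATP6V1B2, ENSDARG00000043465, held only 5.58 CPM in mutant and 2.08 CPM in wild type libraries on average, and its interval was wide (95% interval −0.69 to 3.57). The A and B genes over 20 CPM thus had estimated folds of 1.18 to 1.51, mutant over wild type.

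Subunit C controls the assembly of V1 onto V0, and its paralogs had opposite signs. ATP6V1C1 ENSDARG00000035880 measured 38.2, 46.9 and 41.0 CPM in mutant replicates 1 to 3, against 10.7, 25.6 and 20.4 CPM in wild type replicates 1 to 3. Each mutant library was above each wild type library, and wild type replicate 1 was the lowest. The difference was 2.23-fold (log2 fold change 1.16, SE 0.31, adjusted p = 0.138; 95% interval 0.44 to 1.87; DESeq2 adjusted p = 0.00873). ATP6V1C1 ENSDARG00000023967 measured 46.5, 79.2 and 47.7 CPM in the mutant libraries, against 59.3, 51.0 and 75.1 CPM in the wild type libraries, so that the genotypes overlapped, and its log2 fold change of −0.10 turned positive with total-count scaling and without mutant replicate 1, mutant replicate 3 or wild type replicate 3 (range −0.39 to 0.16). Of the CPM assigned to the ATP6V1C1 pair, ENSDARG00000023967 held 54.9%, 62.8% and 53.8% in mutant replicates 1 to 3, against 84.7%, 66.6% and 78.7% in wild type replicates 1 to 3. The mutant shares were all below the wild type shares, and the difference between the paralogs was not tested. How the authors assigned reads shared by near-identical paralogs is not given in the sources used here, so that values of single paralogs are uncertain.

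Subunits E and G form the outer stalks that hold V1 in place, and D and F the turning central stalk. The E subunit gene atp6v1e1b (ENSDARG00000030694) measured 178, 178 and 176 CPM in mutant replicates 1 to 3, against 140.0, 136 and 118 CPM in wild type replicates 1 to 3. The mutant SD of 0.742 CPM, at 1300 to 1874 counts, is smaller than counting noise, so this closeness does not show precision. Each mutant value lies above all wild type values (log2 fold change 0.43, SE 0.14, adjusted p = 0.196, and adjusted p = 0.0329 in DESeq2). Its paralog atp6v1e1a averaged 63.6 ± 7.09 CPM in mutant and 55.0 ± 8.84 CPM in wild type macrophages (SD, n = 3 each), overlapping between the genotypes (log2 fold change 0.21, SE 0.19, adjusted p = 0.724). ATP6V1F averaged 33.4 ± 7.44 CPM in mutant and 22.0 ± 3.98 CPM in wild type macrophages (SD, n = 3 each), and its lowest mutant library, replicate 3, was below the highest wild type library (log2 fold change 0.60, SE 0.26, adjusted p = 0.345). ATP6V1D and ATP6V1G1 overlapped between the genotypes too, with log2 fold changes of 0.22 (adjusted p = 0.61) and 0.15 (adjusted p = 0.754). The upper ends of their intervals were 0.58 and 0.49, below the estimate for ATP6V1H, 0.71. The interval of ATP6V1H, 0.37 to 1.06, overlaps both, and differences between subunits were not tested.

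**Figure D2:**
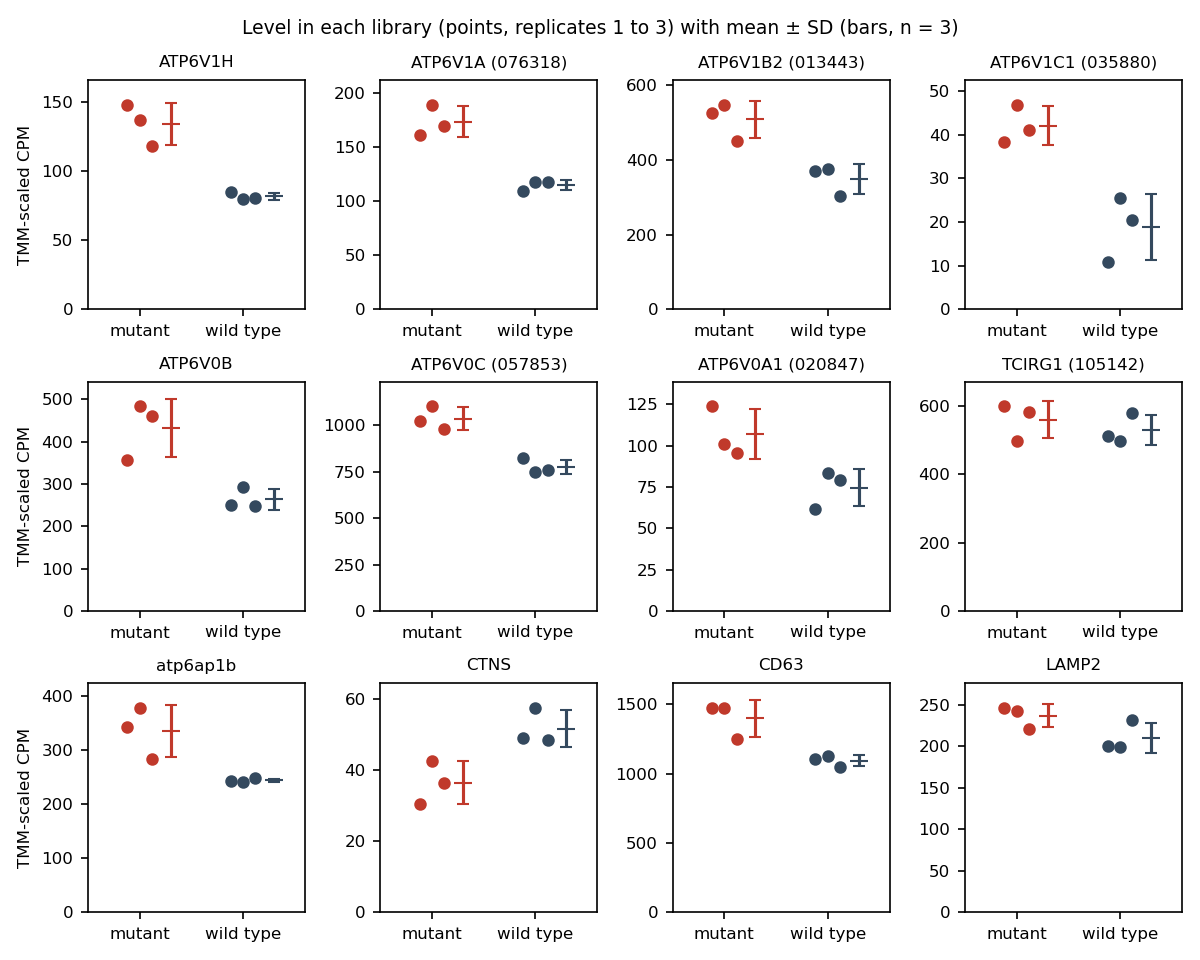
TMM-scaled CPM of 12 members in each library, mutant left of wild type, with replicates 1 to 3 as points from left to right and mean ± SD (n = 3) as bars; vertical axes start at 0. ATP6V1H, ATP6V0B and ATP6V0C (ENSDARG00000057853) show every mutant library above every wild type library, TCIRG1 (ENSDARG00000105142) and LAMP2 overlap, and CTNS is lower in each mutant library.

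In the V0 domain, 8 of 10 tested genes had a positive log2 fold change, with a median of 0.38. The positive genes include TCIRG1 ENSDARG00000016835, which passed the count filter through the mutant libraries only. ATP6V0A1 ENSDARG00000015174, of negative sign, passed it through the wild type libraries only. The 6 V0 genes at a mean of at least 20 CPM also had a median of 0.38. ATP6V0B (ENSDARG00000031681), a proteolipid subunit of the turning ring, measured 356, 484 and 460.5 CPM in mutant replicates 1 to 3, against 251, 293 and 248 CPM in wild type replicates 1 to 3. Mutant replicate 1 was the lowest mutant library and still above all wild type libraries. The difference was 1.64-fold (log2 fold change 0.72, SE 0.15, adjusted p = 0.0716; 95% interval 0.37 to 1.07; DESeq2 adjusted p = 0.000459). The main ring subunit is encoded by ATP6V0C, of which ENSDARG00000057853 measured 1021, 1104 and 982 CPM in mutant replicates 1 to 3, against 822, 750.0 and 757 CPM in wild type replicates 1 to 3. Its spread within each genotype was small beside the difference (log2 fold change 0.42, SE 0.11, adjusted p = 0.119; adjusted p = 0.00863 in DESeq2). The other ATP6V0C gene, ENSDARG00000036577, measured 5.69, 9.97 and 5.74 CPM in the mutant libraries, against 16.1, 10.5 and 5.18 CPM in the wild type libraries, with overlap (log2 fold change −0.58, SE 0.47, adjusted p = 0.681). Of the pair's CPM, ENSDARG00000057853 held 99.4%, 99.1% and 99.4% in the mutant libraries, against 98.1%, 98.6% and 99.3% in the wild type libraries.

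Subunit a, which forms the proton path and directs the pump to particular membranes, is encoded by 6 of the members. TCIRG1 encodes the a3 form, which in mammals is the form of osteoclasts and is found in macrophage lysosomes. TCIRG1 ENSDARG00000105142 measured 600.2, 498 and 583 CPM in mutant replicates 1 to 3, against 513, 498 and 579 CPM in wild type replicates 1 to 3. The genotypes overlapped (log2 fold change 0.081, SE 0.13, adjusted p = 0.854; 95% interval −0.21 to 0.37). The estimate for ATP6V0B, 0.72, lies outside this interval, but the intervals of these genes meet and the difference between them was not tested. ATP6V0A1 ENSDARG00000020847 measured 124, 101 and 95.3 CPM in mutant replicates 1 to 3, against 61.7, 83.3 and 78.9 CPM in wild type replicates 1 to 3, without overlap and with wild type replicate 1 lowest (log2 fold change 0.52, SE 0.19, adjusted p = 0.256; adjusted p = 0.0785 in DESeq2). ATP6V0A2 ENSDARG00000035565 measured 32.7, 13.9 and 18.2 CPM in the mutant libraries, against 12.7, 9.76 and 7.42 CPM in the wild type libraries. The groups separate narrowly, mutant replicate 1 being the highest by far (log2 fold change 1.11, SE 0.38, adjusted p = 0.234; adjusted p = 0.0719 in DESeq2).

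The remaining a subunit genes were near the limit of detection. ATP6V0A2 ENSDARG00000035538 had 0, 0 and 0 counts in the mutant libraries and 0, 2 and 8 counts in the wild type libraries and was not tested. ATP6V0A1 ENSDARG00000015174 measured 0.399, 0.683 and 5.36 CPM in the mutant libraries, against 2.05, 2.58 and 2.93 CPM in the wild type libraries; its log2 fold change of −0.21 turned positive with total-count scaling and without mutant replicate 1 or 2. TCIRG1 ENSDARG00000016835 measured 4.29, 3.82 and 7.34 CPM in the mutant libraries, against 3.38, 2.58 and 0.690 CPM in the wild type libraries; its interval included 0 (95% interval −0.28 to 2.67). ATP6V0D1, which links the ring to the central stalk, averaged 133 ± 9.62 CPM in mutant and 105 ± 5.51 CPM in wild type macrophages (SD, n = 3 each) without overlap (log2 fold change 0.34, SE 0.14, adjusted p = 0.336). The small subunit gene atp6v0e1 averaged 25.3 ± 0.875 CPM in mutant and 20.8 ± 0.837 CPM in wild type macrophages (SD, n = 3 each), also without overlap, but its interval included 0 (log2 fold change 0.28, SE 0.21, adjusted p = 0.65; 95% interval −0.21 to 0.77).

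Accessory proteins help to assemble the pump and direct its traffic. The gene atp6ap1b (ENSDARG00000037153), whose mammalian counterpart Ac45 is needed for assembly, measured 343, 379 and 284 CPM in mutant replicates 1 to 3, against 243, 241 and 248 CPM in wild type replicates 1 to 3. The lowest mutant library, replicate 3, was still above all wild type values (log2 fold change 0.46, SE 0.14, adjusted p = 0.182, and adjusted p = 0.0314 in DESeq2). ATP6AP2, also called the prorenin receptor in mammals, measured 384, 381 and 311 CPM in the mutant libraries, against 322, 293 and 325 CPM in the wild type libraries. Mutant replicate 3 lay within the wild type range (log2 fold change 0.20, SE 0.13, adjusted p = 0.595; 95% interval −0.11 to 0.50). The paralog atp6ap1a was low in every library and measured 7.49, 2.60 and 3.95 CPM in the mutant libraries, against 7.0, 11.8 and 0.863 CPM in the wild type libraries, with overlap and a log2 fold change of −0.48 that turned positive without wild type replicate 2. Of the pair's CPM, atp6ap1b held 97.9%, 99.3% and 98.6% in the mutant libraries, against 97.2%, 95.4% and 99.7% in the wild type libraries.

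Channels and transporters had 4 positive and 2 negative log2 fold changes among 6 tested, with a median of 0.16. The gene with the lowest p was CTNS (ENSDARG00000008890), which encodes the exporter of cystine from the lysosome. It measured 30.5, 42.6 and 36.4 CPM in mutant replicates 1 to 3, against 49.0, 57.7 and 48.5 CPM in wild type replicates 1 to 3. Every mutant library was below every wild type library, whereas no pump subunit showed that order. CTNS averaged 36.5 ± 6.04 CPM in mutant and 51.7 ± 5.17 CPM in wild type macrophages (SD, n = 3 each), 1.42-fold lower in the mutant (log2 fold change −0.50, SE 0.21, adjusted p = 0.316; adjusted p = 0.168 in DESeq2), and its sign was negative under all settings tried (range −0.62 to −0.23).

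OSTM1 is the partner that stabilises the chloride and proton exchanger CLCN7, and neither gene of the pair passed the test. OSTM1 measured 40.2, 49.4 and 37.2 CPM in the mutant libraries, against 24.7, 34.0 and 41.8 CPM in the wild type libraries; wild type replicate 3 lay among the mutant libraries (log2 fold change 0.34, SE 0.25, adjusted p = 0.632). CLCN7 measured 142, 108 and 172 CPM in the mutant libraries, against 171, 119 and 171 CPM in the wild type libraries, overlapping, with a log2 fold change of −0.12 that turned positive with total-count scaling and without mutant replicate 2 (adjusted p = 0.871). The cln3 gene, whose human counterpart is mutated in juvenile Batten disease, measured 28.9, 19.5 and 11.3 CPM in the mutant libraries, against 14.5, 9.04 and 17.6 CPM in the wild type libraries, with overlap (log2 fold change 0.54, SE 0.40, adjusted p = 0.635). NPC1, the cholesterol exporter, measured 134, 176 and 185 CPM in the mutant libraries, against 169, 151 and 131 CPM in the wild type libraries, also with overlap (log2 fold change 0.14, SE 0.17, adjusted p = 0.811; 95% interval −0.26 to 0.53). MCOLN1 ENSDARG00000002285, a calcium channel of the lysosome, averaged 50.7 ± 17.8 CPM in mutant and 44.8 ± 5.66 CPM in wild type macrophages (SD, n = 3 each), with a log2 fold change of 0.18 that turned negative without mutant replicate 1. The second gene named MCOLN1, ENSDARG00000058848, had 8, 4 and 0 counts in mutant replicates 1 to 3 and 2, 0 and 1 counts in wild type replicates 1 to 3, and was not tested.

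Further membrane proteins had 4 positive and 3 negative log2 fold changes, with a median of 0.17. CD63 (ENSDARG00000025147), a tetraspanin of late endosomes and lysosomes, measured 1475, 1470.0 and 1245 CPM in mutant replicates 1 to 3, against 1104, 1127 and 1047 CPM in wild type replicates 1 to 3. The lowest mutant library, replicate 3, was above the highest wild type library, and the difference was 1.28-fold (log2 fold change 0.35, SE 0.11, adjusted p = 0.19; 95% interval 0.10 to 0.61; adjusted p = 0.0489 in DESeq2). LAPTM4A, a small transmembrane protein of lysosomes, measured 108, 108 and 120.2 CPM in the mutant libraries, against 128, 137 and 131 CPM in the wild type libraries. Here the mutant libraries were all below the wild type libraries, but the log2 fold change of −0.24 was not past the test (SE 0.14, adjusted p = 0.51) and turned slightly positive with total-count scaling. Its relative laptm5, expressed in blood cells, measured 215, 205 and 174 CPM in the mutant libraries, against 173, 182 and 149 CPM in the wild type libraries; mutant replicate 3 lay within the wild type range (log2 fold change 0.24, SE 0.15, adjusted p = 0.547).

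LAMP1 and LAMP2 are the abundant glycoproteins that line the lysosomal membrane. LAMP2 measured 247, 242 and 221 CPM in the mutant libraries, against 201, 199.7 and 231 CPM in the wild type libraries. Wild type replicate 3 lay within the mutant range (log2 fold change 0.17, SE 0.13, adjusted p = 0.66; 95% interval −0.13 to 0.47). The gene lamp1b measured 22.1, 12.3 and 23.6 CPM in the mutant libraries, against 8.81, 15.2 and 16.9 CPM in the wild type libraries, with overlap (log2 fold change 0.51, SE 0.36, adjusted p = 0.613). Its paralog LAMP1 (ENSDARG00000100181) measured 6.29, 7.92 and 7.62 CPM in the mutant libraries, against 8.21, 8.47 and 9.84 CPM in the wild type libraries, without overlap and lower in the mutant, with a small log2 fold change in a gene of low level (log2 fold change −0.28, SE 0.33, adjusted p = 0.794). Of the pair's CPM, lamp1b held 77.8%, 60.8% and 75.6% in the mutant libraries, against 51.8%, 64.2% and 63.2% in the wild type libraries, which overlap. The receptor gene scarb2a, whose mammalian counterpart carries glucocerebrosidase to lysosomes, averaged 94.2 ± 10.6 CPM in mutant and 104 ± 14.4 CPM in wild type macrophages (SD, n = 3 each), with a log2 fold change of −0.15 that turned positive with total-count scaling (adjusted p = 0.785).

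Other genes of the pump's assembly, of the lysosomal membrane and of lysosomal signalling were taken from 4 lists, also made with earlier results known. In the list of pump assembly and regulation, 13 genes were tested and none passed edgeR's test, while 3 had an unadjusted p below 0.05, all higher, against 7.04% of all genes. DESeq2 gave 3 of the 13 no adjusted p and called 2 of the rest higher, against 4.59% of all genes to which it gave an adjusted p. TM9SF4, a membrane protein reported to bind V1 in human cells, measured 121, 119 and 112 CPM in mutant replicates 1 to 3, against 63.9, 77.5 and 63.2 CPM in wild type replicates 1 to 3 (log2 fold change 0.78, SE 0.16, adjusted p = 0.057; adjusted p = 0.000145 in DESeq2). VMA21, the chaperone that assembles V0 in the endoplasmic reticulum, measured 112, 116 and 95.7 CPM in mutant replicates 1 to 3, against 58.9, 52.7 and 73.2 CPM in wild type replicates 1 to 3 (log2 fold change 0.81, SE 0.18, adjusted p = 0.0818; adjusted p = 0.00131 in DESeq2). The groups did not overlap for either gene. RNASEK ENSDARG00000069461, whose product associates with the pump, did not overlap either (log2 fold change 0.39, SE 0.15, adjusted p = 0.302). The other gene named RNASEK, ENSDARG00000104458, was low, overlapped and had the opposite sign (log2 fold change −0.67, SE 0.52, adjusted p = 0.655), and ccdc115, another assembly factor, also overlapped (log2 fold change 0.50, SE 0.24, adjusted p = 0.411). The median over the 13 genes was 0.18.

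Of 29 tested genes among further lysosomal transporters and membrane proteins, 1 rose and 0 fell, against 0.309% and 0.885% of all genes (median log2 fold change 0.081). At an unadjusted edgeR p below 0.05, 6 of the 29 were higher and 4 lower, against 7.04% and 7.17% of all genes. DESeq2 gave 9 of the 29 no adjusted p and called 3 of the rest higher and 2 lower, against 4.59% and 4.64%. The gene that rose was SLC36A1 (ENSDARG00000075618), whose mammalian counterpart exports amino acids from lysosomes with protons. It measured 66.4, 76.1 and 71.5 CPM in mutant replicates 1 to 3, against 21.2, 27.0 and 28.7 CPM in wild type replicates 1 to 3, a 2.79-fold difference (log2 fold change 1.48, SE 0.20, adjusted p = 0.0118). The macrophage glycoprotein gene cd68 averaged 962 ± 150.0 CPM in mutant and 641 ± 40.4 CPM in wild type macrophages (SD, n = 3 each) without overlap (log2 fold change 0.59, SE 0.14, adjusted p = 0.094; adjusted p = 0.00385 in DESeq2). LAPTM4B, a relative of LAPTM4A, had lower values in each mutant library and averaged 13.7 ± 3.39 CPM in mutant and 34.6 ± 12.8 CPM in wild type macrophages (SD, n = 3 each) (log2 fold change −1.33, SE 0.34, adjusted p = 0.118; adjusted p = 0.00703 in DESeq2). For tmem63a, an ion channel gene, the mutant libraries were above the wild type libraries (log2 fold change 1.16, SE 0.31, adjusted p = 0.132; adjusted p = 0.0121 in DESeq2).

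The signalling list covers the transcription factors TFEB and TFE3, which bind the CLEAR motif of lysosomal genes, and the machinery that recruits the kinase mTOR to lysosomes. Of its 26 tested genes none passed edgeR's test (median log2 fold change 0.13). At an unadjusted p below 0.05, 4 were higher and 1 lower, against 7.04% and 7.17% of all genes. DESeq2 gave 7 of the 26 no adjusted p and called 1 of the rest higher, against 4.59%. TFEB, TFE3, tfe3b and MTOR overlapped between the genotypes. Their log2 fold changes were −0.096, −0.35, 0.11 and −0.50 (edgeR adjusted p of 0.67 or more). MITF ENSDARG00000003732, on the same list, measured 5.49, 19.4 and 16.7 CPM in mutant replicates 1 to 3. In wild type replicates 1 to 3 it measured 10.1, 6.60 and 3.97 CPM, with overlap (log2 fold change 0.99, SE 0.53, adjusted p = 0.461). The other gene named MITF, ENSDARG00000037833, also overlapped (log2 fold change −0.32, adjusted p = 0.899). FNIP2, a partner of folliculin in amino acid sensing, measured 102, 101 and 61.6 CPM in mutant replicates 1 to 3, against 41.2, 30.3 and 44.0 CPM in wild type replicates 1 to 3 (log2 fold change 1.19, SE 0.25, adjusted p = 0.0646; adjusted p = 0.000267 in DESeq2). LAMTOR3, part of the scaffold on the lysosome, and PIKFYVE, a lipid kinase of late endosomes, were above the wild type range in each mutant library, with log2 fold changes of 0.64 (adjusted p = 0.264) and 0.46 (adjusted p = 0.284). PPP3R1 ENSDARG00000092659, a regulatory subunit of calcineurin, was below it, at under 5 CPM in each mutant library (log2 fold change −1.31, SE 0.48, adjusted p = 0.268). The list of pump subunits outside the members matched ATP6V1C2 alone, which had counts in 1 library only and was not tested.

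The summed level of the pump subunits separated the genotypes. Summed over the 23 V1 and V0 genes, levels were 4242, 4333 and 4014 CPM in mutant replicates 1 to 3, against 3281, 3241 and 3134 CPM in wild type replicates 1 to 3. The 3 mutant sums exceed the 3 wild type sums, with a ratio of means of 1.30. Such sums weigh genes by their CPM and restate genes described above. In V0, ATP6V0C ENSDARG00000057853 averaged 1035 CPM in mutant and 776 CPM in wild type libraries, and ATP6V0B 434 and 264 CPM. TCIRG1 ENSDARG00000105142, also a large part of the sum, averaged 560 and 530 CPM. For V1 alone the sums were 1934, 1955 and 1709.9 CPM in the mutant libraries, against 1469, 1465 and 1332 CPM in the wild type libraries, mutant replicate 3 being the lowest of the mutant. For V0 they were 2308, 2378 and 2304 CPM in the mutant libraries, against 1812, 1775 and 1802 CPM in the wild type libraries, with little difference between replicates of a genotype. Accessory protein sums also separated, at 735, 763 and 599 CPM in mutant, against 572, 546 and 574 CPM in wild type libraries. Membrane protein sums did too, at 2174, 2127 and 1891 CPM in mutant, against 1739, 1778 and 1673 CPM in wild type libraries. Separation of the sums was thus not particular to the pump subunits. The sums over channels and transporters overlapped, at 447, 442 and 478 CPM in the mutant libraries, against 468, 421 and 453 CPM in the wild type libraries.

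**Figure D3:**
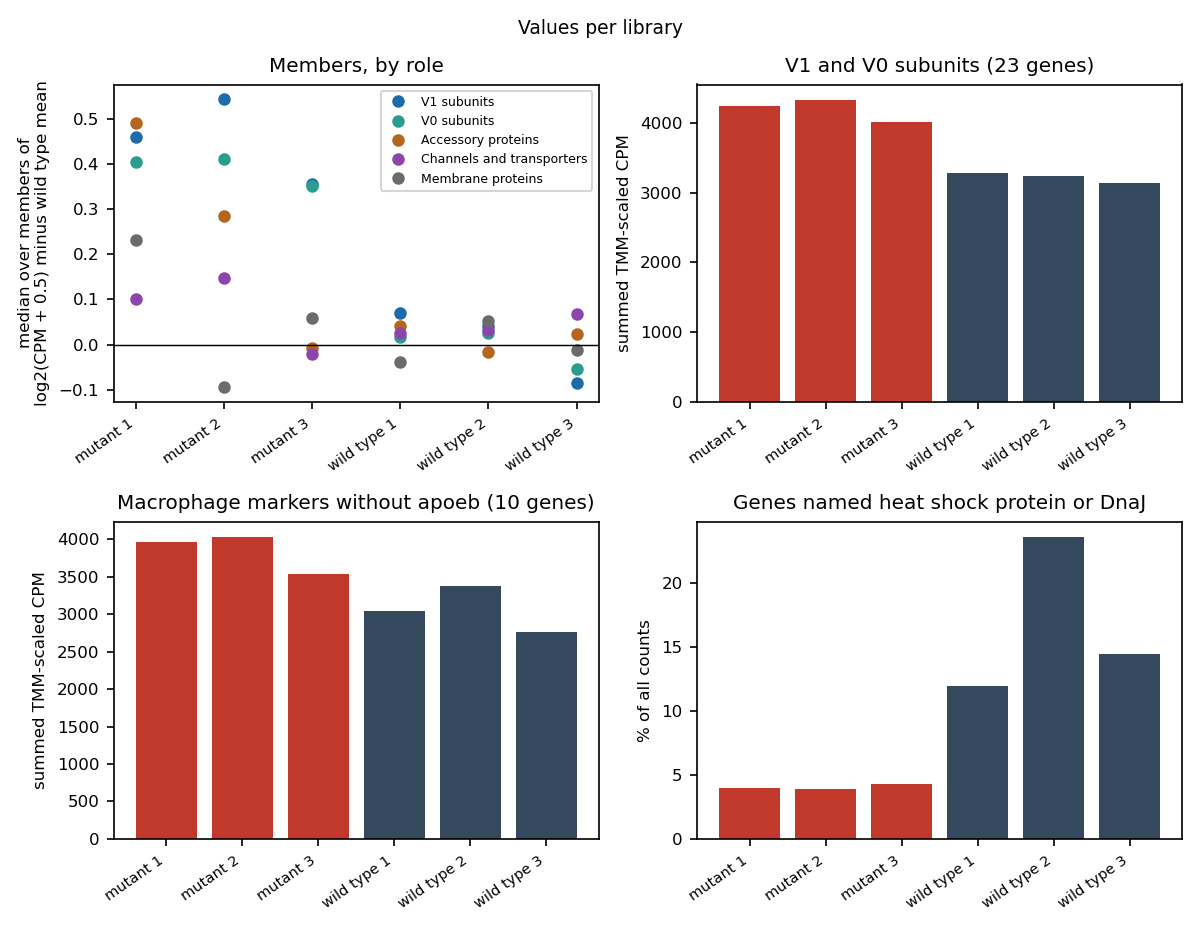
Values per library, mutant replicates left of wild type replicates: the median over members of log2(CPM + 0.5) minus the wild type mean by role, the summed CPM of 23 pump subunits, the summed CPM of macrophage markers without apoeb, and the percentage of counts in heat shock and DnaJ genes. The pump sum is 4014 CPM or more in each mutant library and 3281 CPM or less in each wild type library, and marker sums and heat shock share separate the genotypes too.

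Other properties of the libraries also separated the genotypes. Of 15 listed macrophage marker symbols, 11 were matched, and mpeg1.1, mpeg1.2, mfap4 and lgals3bpb were not, so the sums leave these out. All 11 were detected, and 2 of the 11 rose (apoeb and SPI1). Of the other 9, CORO1A and LCP1 lay above the wild type range in every mutant library and csf1rb and IRF8 below it, with log2 fold changes of 0.45, 0.46, −0.74 and −0.81 that did not pass edgeR's test. DESeq2 called IRF8 lower (adjusted p = 0.037) and CORO1A and LCP1 higher (adjusted p = 0.015 and 0.0337). The 11 summed to 8692 to 9064 CPM in the mutant libraries and 5063 to 6223 CPM in the wild type libraries. Without apoeb the remaining 10 summed to 3967, 4034 and 3536 CPM in mutant replicates 1 to 3, against 3044, 3376 and 2760.2 CPM in wild type replicates 1 to 3. Of the 10, 5 had a positive log2 fold change. LCP1, CORO1A and SPI1 held much of these sums. They averaged 1369, 831 and 558 CPM in mutant and 995, 607 and 360 CPM in wild type libraries. The sums thus say little about the other macrophage markers. Epidermal markers, 11 genes of which none passed edgeR's test, summed to 4222 to 4404 CPM in the mutant libraries and 5079 to 5674 CPM in the wild type libraries. Among them cldni and krt4 lay below the wild type range in every mutant library, with log2 fold changes of −0.55 and −0.32. DESeq2 called cldni lower (adjusted p = 0.0219). A positive log2 fold change was found in 2 of the 11. In bulk RNA, fewer cells of a type and less RNA per cell cannot be told apart, and the part of cell composition in the pump subunits' values was not tested. Of 6 listed ionocyte marker symbols 5 were matched, and the pump subunit symbol atp6v1al was not. The matched genes summed to 154 to 211 CPM in the mutant libraries and 193 to 222 CPM in the wild type libraries. Most of each sum was ca2, at 110 to 179 CPM in the mutant libraries and 161 to 184 CPM in the wild type libraries, so the sum says little about the other genes. For slc12a10.2 the ranges were 27.2 to 38.4 CPM in mutant and 28.9 to 31.9 CPM in wild type libraries. At lower levels, foxi3a spanned 3.09 to 6.01 CPM in mutant and 0.345 to 7.36 CPM in wild type libraries. The ranges of foxi3b were 0.376 to 2.05 CPM and 0 to 4.95 CPM. The remaining gene, slc9a3.2, was at 0 in 5 of 6 libraries. Neutrophil markers summed to 1053 to 2103 CPM in the mutant libraries and 819.8 to 1272 CPM in the wild type libraries. Sums of erythrocyte markers were 141 to 252 CPM in mutant and 104 to 158 CPM in wild type libraries. For neural markers they were 234 to 332 CPM in mutant and 193 to 277 CPM in wild type libraries, so that these 3 lists overlapped. Muscle markers stood at 1257 CPM in the second mutant library, against 79.7 to 112 CPM in the 5 others. Without that library the median of the V1 subunits was 0.46 and that of the V0 subunits 0.35.

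Genes named as heat shock proteins or DnaJ co-chaperones held 3.95%, 3.91% and 4.30% of counts in mutant replicates 1 to 3, against 11.9%, 23.6% and 14.4% in wild type replicates 1 to 3. The pump sums of wild type replicates 1 to 3, in the same order, were 3281, 3241 and 3134 CPM. With scaling by total counts alone the median log2 fold change of all genes was 0.27 higher than with TMM. The median of the 22 tested pump subunits was then 0.69, which is 0.45 above that of all genes as it is with TMM, since another scaling shifts all genes by about the same amount. The part of the heat shock share in the pump subunits' values was not tested.

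**Figure D4:**
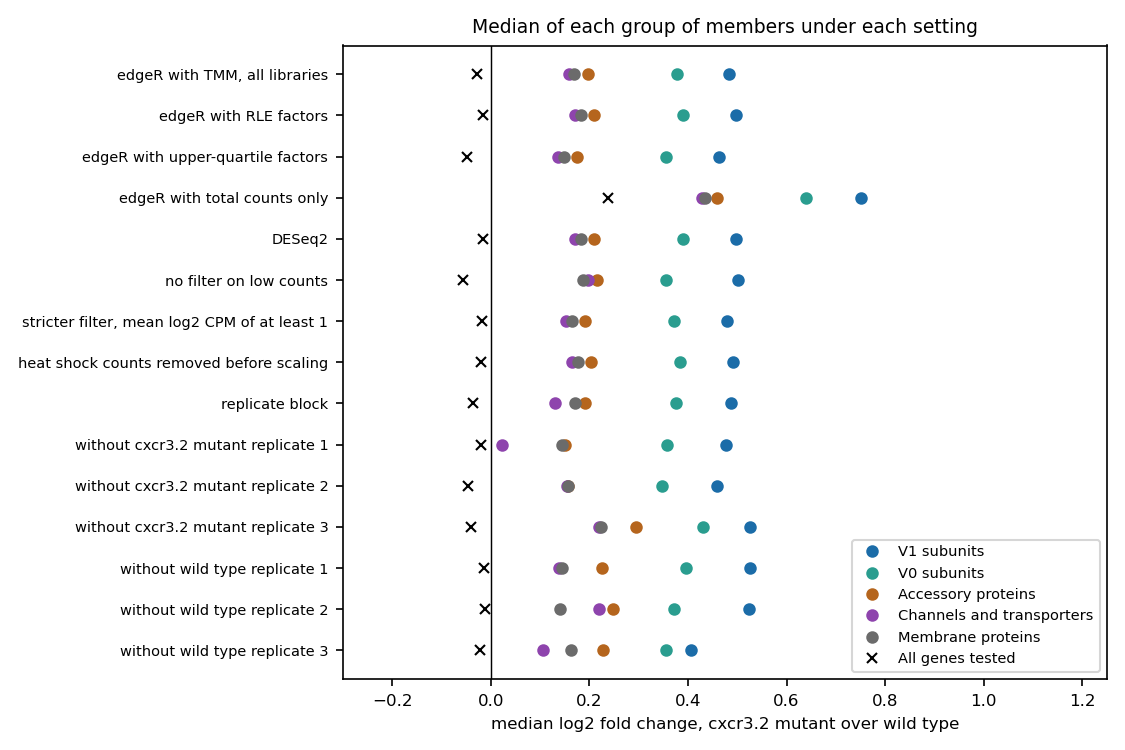
Median log2 fold change, cxcr3.2 mutant over wild type, of the tested members of each role and of all genes tested (crosses) under each processing setting. V1 and V0 subunits lie right of the other roles and of all genes in each setting shown, from 0.41 to 0.75 for V1 and from 0.35 to 0.64 for V0.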

How the data were processed

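RNA of sorted macrophages was sequenced after amplification of cDNA with a low-input kit, per the labels' protocols. Reads were aligned to GRCz10, and the submitters' processing notes name TopHat and Bowtie without versions. The deposited values are raw counts of reads per Ensembl gene, with no normalization. The counter, its annotation, its use of strand and its treatment of multiply mapped reads are not stated in the sources that were used here, so that overlapping or antisense genes cannot be told apart from their partners. Names were taken from a table of Ensembl IDs, which named 26121 of the 31962 genes.

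From these counts, 16499 genes passed edgeR's filterByExpr, set to a count of 10 and a total of 15. Libraries were scaled by TMM with library sizes taken before filtering, and genotype was tested with edgeR 4.0.16 (quasi-likelihood test, genotype the only term, R 4.3.3, limma 3.58.1) with Benjamini-Hochberg adjustment over all genes tested and a threshold of 0.05. Standard errors and 95% intervals are of the Wald type with the quasi-likelihood variance. The common biological coefficient of variation was 0.441. DESeq2 1.42.0 was run as an alternative on the same genes, and its missing adjusted p-values were kept missing. Other alternatives were RLE, upper-quartile and total-count scaling, no filter and a stricter one (mean log2 CPM of at least 1), removal of counts of 87 genes named as heat shock or DnaJ proteins, the replicate number as a block, and leaving out each library. The scripts were tested on simulated data. Totals were 6792943 to 9607009 counts per mutant library and 6239470 to 8452301 per wild type library. Intervals rest on the spread between these 3 libraries per genotype and on a variance that edgeR moderates over all genes tested. The interval of a gene thus does not measure the spread of its own replicates alone.

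Groups come from the titles. Every pair of replicates of a genotype differed by more than counting noise, with a chi-square of 16.5 to 40.0 per gene. The members, their roles and all lists were chosen with earlier results of these data known. By rule, per-library values are given for the members of lowest p in each role, at most 4, and for paralogs of opposite sign. Of each further list the genes of lowest p, at most 4, are named. Other members with per-library values fall outside the rule and were chosen after their values were seen. Outside that rule, TFEB, TFE3, tfe3b, MTOR and the genes named MITF are also given from the signalling list. Promoter motifs and protein sequences were not analysed here.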

Additional observations from a re-analysis of the deposited data

How the results depend on the processing

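No member was called lower under any setting, and none was called higher except in DESeq2, which called 9, and with edgeR on total counts alone, which called 7 of those 9 (atp6v1e1b and atp6ap1b were not among them). Over all genes edgeR called 51 higher and 146 lower. The counts were 463 and 468 in DESeq2, and with total counts they were 217 and 117, so that more genes were higher than lower. Leaving out 1 library gave 3 to 11 higher and 43 to 98 lower, the lowest of both without wild type replicate 3. Deviations of same-numbered libraries correlated at −0.024, 0.0019 and −0.029, so no shared shift was seen. These correlations cannot tell whether such libraries were handled together. With a replicate block edgeR called 13 genes higher, 84 lower and 0 members. With total counts the medians were 0.75 for V1, 0.64 for V0, 0.46 for accessory proteins, 0.43 for channels and 0.43 for membrane proteins. Leaving out 1 library gave 0.41 to 0.53 for V1, 0.35 to 0.43 for V0, 0.15 to 0.30 for accessory proteins, 0.023 to 0.22 for channels, lowest without mutant replicate 1, and 0.14 to 0.22 for membrane proteins. Accessory proteins above 20 CPM, a choice made after seeing the data, had 0.33. Of 38 members 31 kept 1 sign. ATP6V1C1 (ENSDARG00000023967) turned to 0.16 with total counts and ranged from −0.39 to 0.071 when 1 library was left out, ATP6V0A1 (ENSDARG00000015174) to 0.063 with total counts and from −2.19 to 0.28 when 1 was left out (0.20 without mutant replicate 2), and CLCN7 to 0.13 with total counts and from −0.29 to 0.040 when 1 was left out. With total counts LAPTM4A turned to 0.032 and scarb2a to 0.12. MCOLN1 (ENSDARG00000002285) ranged from −0.13 without mutant replicate 1 to 0.39, and atp6ap1a from −0.99 to 0.25 without wild type replicate 2. The cause was not tested. The 3 pooled libraries per genotype limit the precision, which the interval of each gene shows.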
